A study of Mus musculus with 6 samples.

Results

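Transcripts for fatty acid uptake, storage and oxidation were examined in activated group 2 innate lymphoid cells (ILC2s), tissue-resident lymphocytes of the lung that answer IL-33 with type 2 cytokines. The set was defined by name as 36 genes, taken by gene symbol from a table of 16588 genes; 34 had a row. Ppara and Ppargc1a had no row, and no row of the table holds fewer than 10 counts in total. Of the 34, 30 had enough counts to be tested, and Fabp4, Slc27a2, Lpl and Cpt1b did not.

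RNA was sequenced from 6 libraries, 3 labelled Cnr2 KO (also titled CB2KO, and called KO-labelled in brackets below) and 3 labelled C57BL/6, the wild type (WT). CB2, the protein made from Cnr2, is a cannabinoid receptor, and the study set its mutant against WT to ask what it does in ILC2s. Mice of both groups had received 0.5 µg of recombinant mouse IL-33 through the nose on each of 3 days. Lung cells were taken on day 4, and sorted ILC2s were then cultured for 18 h. The title of the series speaks of adipose tissue, but the sample labels give lung as the source. The labels give neither the design of the allele nor the age of the mice. They also do not state that each library came from its own animal or culture, so the p-values rest on the variation among these 6 libraries, part of which may be technical.

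Library totals were 17867541 to 19399819 counts, except for WT replicate 2 with 129617689. Cnr2 itself had 147, 139 and 135 counts in the Cnr2 KO-labelled libraries and 76, 503 and 60 counts in WT replicates 1, 2 and 3. That is 7.49 ± 0.0627 CPM in the Cnr2 KO-labelled libraries and 3.69 ± 0.449 CPM in WT (SD, n = 3 each; CPM is counts scaled to library size with TMM factors). Cnr2 RNA was thus 2.01-fold higher (edgeR adjusted p = 2.11e-05) where the label says knockout, and every direction below is relative to the labels. With a single value per gene, loss of a single exon cannot be seen in the table. All 12 listed ILC2 markers had a row and were tested, 9 higher, 2 lower (Il2ra and Il13) and 1 not called (Il5), and they summed to 11488.1 to 12579.9 CPM in the Cnr2 KO-labelled libraries and 12645.0 to 13164.0 CPM in WT. Gata3 was at 1051.6 to 1084.1 CPM in the Cnr2 KO-labelled libraries and 279 to 303.8 CPM in WT. Markers of other cells also differed, and not all in 1 direction within a list. Dendritic markers summed to 27.4 to 35.0 CPM in the Cnr2 KO-labelled libraries, mostly Xcr1, and 468.3 to 500.2 CPM in WT, mostly Ccr7. Of the 3 tested, Xcr1 was 2.21-fold higher in the Cnr2 KO-labelled libraries (edgeR adjusted p = 8.03e-08), while Ccr7 was 60.3-fold lower. Batf3 was also lower, with 0 counts in each Cnr2 KO-labelled library and 17, 123 and 23 counts in WT. B cell markers summed to 25.2 to 26.8 CPM in the Cnr2 KO-labelled libraries and 16.2 to 17.6 CPM in WT. Erythroid markers summed to 5.13 to 6.27 CPM in the Cnr2 KO-labelled libraries and 0.735 to 1.27 CPM in WT. Eosinophil, mast cell and basophil markers summed to 3.7 to 4.33 and 1.58 to 3.43 CPM. T cell markers summed to 23.8 to 26.3 CPM in the Cnr2 KO-labelled libraries and 13.1 to 14.2 CPM in WT, with Cd3g higher (17.2 ± 1.41 CPM in KO-labelled and 4.65 ± 0.627 CPM in WT libraries), Trac 3.14-fold lower and Lck not called. Alveolar type 2 markers summed to 59.7 to 68.1 CPM in the Cnr2 KO-labelled libraries and 28.3 to 31.5 CPM in WT, with Epcam higher (46.4 ± 3.12 CPM in KO-labelled and 11.0 ± 0.442 CPM in WT libraries), Napsa higher and Abca3 lower. The surfactant gene Sftpd had 0 counts in each Cnr2 KO-labelled library and 2, 11 and 0 counts in WT, and Sftpc, Sftpb and Sftpa1 had no row. Their part in the results was not tested.

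Fatty acids enter a cell by diffusion or through membrane proteins, are bound in the cytosol by carrier proteins and are made reactive by joining to coenzyme A. The activated chain is then either built into triglyceride and kept in lipid droplets, or passed into mitochondria by the carnitine shuttle and shortened step by step by beta-oxidation. Activated lung ILC2s are known to take up fatty acids from outside and to store them in droplets, with DGAT1 and the nuclear receptor PPAR-gamma among the proteins involved.

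In the Cnr2 KO-labelled libraries, both genes of the last step of triglyceride synthesis (Dgat1 and Dgat2) and the carrier Fabp5 fell by more than 2-fold. The entry enzyme of mitochondrial oxidation, Cpt1a, rose 1.91-fold. Slc25a20 and Cpt2, the rest of the tested carnitine shuttle, were called higher by less, and both calls depended on single libraries. The oxidation enzymes changed in both directions, most of them by less than 1.5-fold. Of the 30 tested members, 14 were higher (46.7%) and 8 lower (26.7%), against 33.1% and 33.2% of all 12150 tested genes (edgeR quasi-likelihood fit, adjusted p under 0.05 by Benjamini-Hochberg). Together 73.3% of members were called, where the share of all tested genes was 66.3%, so being called was close to the general rate. A change of at least 1.5-fold was called in 9 members (30%, against 32.6% of all tested genes), and one of at least 2-fold in 4 (13.3%, against 16.4%). In 21 members the 2 groups had no overlap (70.0%, against 68.9%). The median log2 fold change was 0.05 in the members and 0.01 in all tested genes, and the median absolute change 0.26 and 0.40. These are bulk libraries, in which fewer cells of a type and less RNA per cell cannot be told apart.

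**Figure D1:**
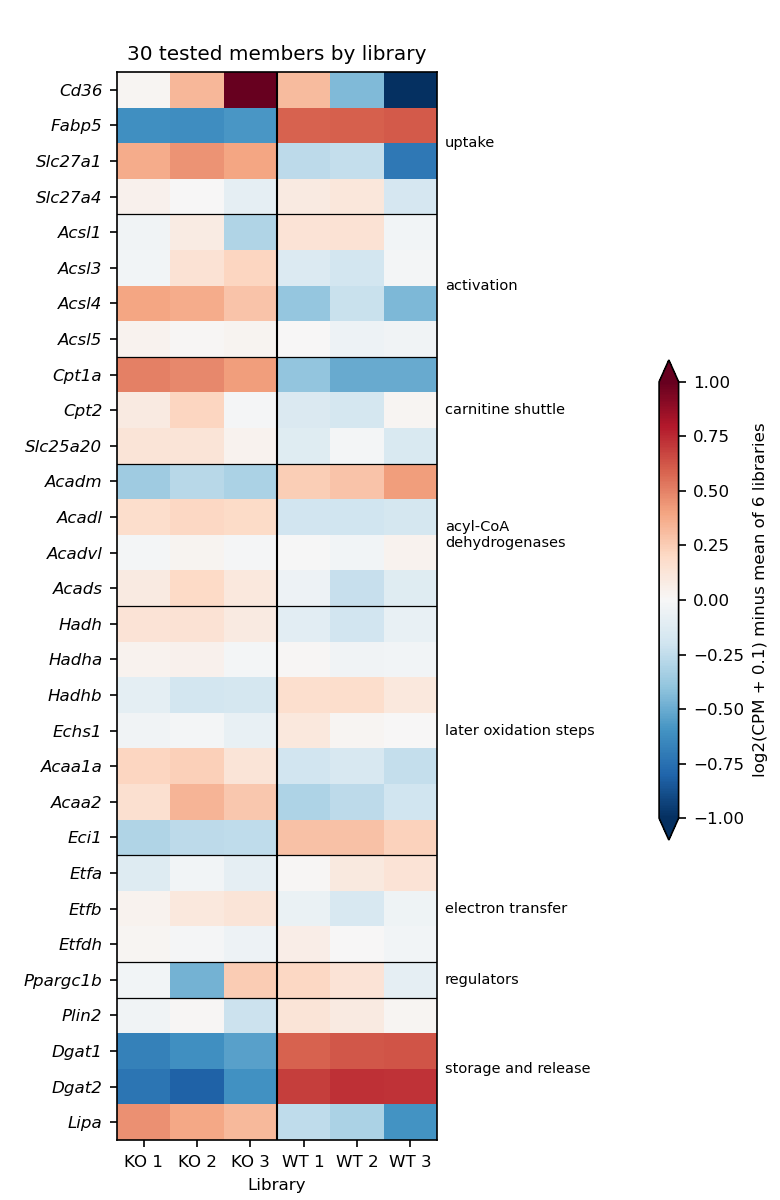
Level of each of the 30 tested members in each library, as log2(CPM + 0.1) minus that gene's mean over the 6 libraries; rows are genes grouped by role, columns are the 3 libraries labelled Cnr2 KO (KO) and the 3 WT libraries, red is above and blue below the mean, and the colours stop at -1 and 1. Dgat1, Dgat2 and Fabp5 are low in all 3 libraries labelled Cnr2 KO, and Cpt1a, Acsl4, Slc27a1 and Lipa are high there. Cd36 stands out as high in replicate 3 of that group (2.05 CPM) and as low in WT replicate 3 (0 CPM).

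Uptake was dominated by Fabp5, a cytosolic fatty acid carrier and the uptake gene with the highest level. It had 93.1, 92.7 and 95.2 CPM in the Cnr2 KO-labelled libraries, against 214.7, 215.9 and 218.2 CPM in WT. The groups stood well apart, and libraries of a group differed by a few CPM. Fabp5 fell by 1.21 on the log2 scale (SE 0.05, edgeR adjusted p = 5.92e-14), a 2.31-fold difference. The mouse genome holds pseudogene copies of Fabp5, with which reads may be shared. Slc27a1, a transporter that also activates fatty acids (FATP1), went the other way at a much lower level. It had 7.55, 7.96 and 7.65 CPM in the Cnr2 KO-labelled libraries and 4.83, 4.89 and 3.49 CPM in WT, with no overlap (log2 fold change 0.78, SE 0.16, edgeR adjusted p = 3.28e-04). Its relative Slc27a4 (FATP4) averaged 22.1 ± 1.02 CPM in the Cnr2 KO-labelled libraries and 22.6 ± 2.36 CPM in WT, and its groups overlapped (edgeR adjusted p = 0.695).

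The other uptake genes were near the count floor. Cd36, a scavenger receptor that carries long-chain fatty acids, had 0.411, 0.534 and 2.05 CPM in the Cnr2 KO-labelled libraries and 0.525, 0.271 and 0 CPM in WT. It was called higher (log2 fold change 1.87, SE 0.66, edgeR adjusted p = 0.0181), yet the groups overlapped and the high value was in a single library, replicate 3. The call was lost without that library (log2 fold change 0.81, edgeR adjusted p = 0.374), without WT replicate 2 (adjusted p = 0.0724) and without WT replicate 3 (adjusted p = 0.0617). Lpl, the secreted lipase that frees fatty acids from lipoproteins, had 0, 1 and 49 counts in the Cnr2 KO-labelled libraries and 1, 2 and 2 counts in WT. Here too the only high value was in replicate 3 of the Cnr2 KO-labelled libraries. Fabp4, the adipocyte and macrophage carrier, had 1, 0 and 0 counts in the Cnr2 KO-labelled libraries and 0, 10 and 3 counts in WT, and Slc27a2, a transporter of liver and kidney, had 6, 0 and 3 counts in the Cnr2 KO-labelled libraries and 5, 0 and 7 in WT.

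Cd36, Fabp4 and Lpl are also known in macrophages, endothelium and adipocytes, and markers of these cells were looked up. Of 11 alveolar macrophage markers 4 had a row, and Siglecf, Marco, Chil3, Ear2, Mrc1, Mertk and Fcgr1 did not. Their sum was 224.4 to 252.8 CPM in the Cnr2 KO-labelled libraries and 293.2 to 320.6 CPM in WT, nearly all of it Pparg, which ILC2s also express. Pparg was 1.28-fold lower (edgeR adjusted p = 1.02e-05). Cd68, a lysosomal protein of macrophages, had 3.08, 2.67 and 4.10 CPM in the Cnr2 KO-labelled libraries and 0.998, 1.66 and 1.43 CPM in WT. It was 2.30-fold higher (edgeR adjusted p = 8.94e-04). Adgre1, which encodes F4/80, had 3, 19 and 16 counts in the Cnr2 KO-labelled libraries and 0 in each WT library. Itgax had 3, 0 and 5 counts in the Cnr2 KO-labelled libraries and 5, 30 and 0 counts in WT. Of 9 endothelial markers 3 had a row, summing to 41.9 to 43.4 CPM in the Cnr2 KO-labelled libraries and 113.1 to 121.2 CPM in WT, mostly Pecam1. Cdh5 and Kdr had no row. Of 9 adipocyte markers only the lipases Lipe and Pnpla2 had a row, and Adipoq, Lep and Plin1 did not. The part of these cells in the values of the uptake genes was not tested.

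Of the long-chain acyl-CoA synthetases, which activate fatty acids, Acsl4 and Acsl3 rose. Acsl4, which favours arachidonic acid and other polyunsaturated chains, had 200.1, 197.9 and 185.8 CPM in the Cnr2 KO-labelled libraries and 117.0, 131.0 and 112.0 CPM in WT. All 3 values were above all WT values (log2 fold change 0.69, SE 0.06, edgeR adjusted p = 4.00e-09, 1.61-fold). Acsl5, a synthetase of mitochondria and the endoplasmic reticulum, was at 436.8 ± 3.44 CPM in the Cnr2 KO-labelled libraries and 420.6 ± 8.95 CPM in WT (SD, n = 3 each), 1.04-fold apart (edgeR adjusted p = 0.265). Acsl3, found on nascent lipid droplets, was 1.17-fold higher (47.4 ± 4.06 CPM in KO-labelled and 40.5 ± 2.44 CPM in WT libraries, edgeR adjusted p = 0.0128), with overlapping groups. Without replicate 3 of the Cnr2 KO-labelled libraries its adjusted p was 0.0741, and without WT replicate 2 it was 0.0766. Acsl1 was at 17.2 ± 2.28 CPM in the Cnr2 KO-labelled libraries and 19.2 ± 1.27 CPM in WT (edgeR adjusted p = 0.167), but was called lower after a correction for GC and length (log2 fold change -0.30, adjusted p = 0.0148). Per kb of the longest coding transcript, the levels in the Cnr2 KO-labelled libraries were 103 for Acsl5, 36.9 for Acsl4, 12 for Acsl3 and 4.41 CPM per kb for Acsl1. The order was the same in WT, with 99.1, 22.7, 10.3 and 4.93 CPM per kb. Neighbours in it lay apart by more than their SDs, which hold only the spread among libraries.

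All 3 tested members of the carnitine shuttle were called higher, as were 33.1% of all tested genes. Cpt1a, the rate-limiting enzyme that malonyl-CoA inhibits, had 250.7, 246.5 and 236.5 CPM in the Cnr2 KO-labelled libraries and 134.5, 124.5 and 125.0 CPM in WT. The lowest value labelled Cnr2 KO lay far above the highest WT value (log2 fold change 0.94, SE 0.05, edgeR adjusted p = 4.42e-12). Cpt1b, the muscle isoform, had 2, 8 and 6 counts in the Cnr2 KO-labelled libraries and 9, 4 and 13 counts in WT, too few to be tested, and 2744 of its 3372 exon bases are shared with Gm44502 on the same strand. Slc25a20, the carrier that brings acylcarnitines across the inner membrane, was at 60.4 ± 2.2 CPM in the Cnr2 KO-labelled libraries and 52.7 ± 2.71 CPM in WT (1.14-fold, edgeR adjusted p = 0.0145). Cpt2, which returns the chain to coenzyme A inside the mitochondrion, was at 29.4 ± 2.25 CPM in the Cnr2 KO-labelled libraries and 25.6 ± 1.93 CPM in WT (1.15-fold, edgeR adjusted p = 0.0412), with overlapping groups. Both small calls depended on single libraries: for Slc25a20 the adjusted p was 0.0555 without replicate 2 labelled Cnr2 KO, 0.0554 without WT replicate 1 and 0.0608 without WT replicate 3. For Cpt2 it was 0.0694 and 0.186 without replicates 1 and 2 labelled Cnr2 KO, 0.109 and 0.192 without WT replicates 1 and 2, and 0.099 in DESeq2. With all libraries kept, the Cpt2 call was also lost in edgeR without a filter on low counts (adjusted p = 0.0714). The same held with WT replicate 2 thinned to the depth of the other libraries (adjusted p = 0.0824).

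Stretches just upstream of the RefSeq start (build GRCm38.p6) are shown for Cpt1a and Acsl4, which rose, and for Acadm, which fell. They run 5′ to 3′ on the gene's strand, and bases of an annotated exon are left out. Capitals mark 2 motifs on either strand, AGGTCA (reverse TGACCT), the core motif of nuclear receptors such as the PPARs, and GGGCGG (reverse CCGCCC), the GC box. The Cpt1a stretch is chr19:3323051-3323284 on the plus strand, that of Acsl4 is chrX:142390536-142390785 on the minus strand, and that of Acadm is chr3:153944644-153944893 on the minus strand. In the GENCODE M21 annotation Cpt1a starts earlier, at 3322334, so its stretch lies inside that gene, between annotated exons.
Cpt1a: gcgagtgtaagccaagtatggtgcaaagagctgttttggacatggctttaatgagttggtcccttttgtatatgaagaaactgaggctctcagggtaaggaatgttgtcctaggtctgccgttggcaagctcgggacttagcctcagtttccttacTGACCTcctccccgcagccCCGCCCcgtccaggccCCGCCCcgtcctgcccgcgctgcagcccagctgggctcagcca
Acsl4: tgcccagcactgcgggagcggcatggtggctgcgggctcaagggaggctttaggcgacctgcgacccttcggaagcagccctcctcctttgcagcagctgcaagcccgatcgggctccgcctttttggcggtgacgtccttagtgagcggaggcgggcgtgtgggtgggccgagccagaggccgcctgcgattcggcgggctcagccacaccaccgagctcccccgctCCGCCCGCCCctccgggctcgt
Acadm: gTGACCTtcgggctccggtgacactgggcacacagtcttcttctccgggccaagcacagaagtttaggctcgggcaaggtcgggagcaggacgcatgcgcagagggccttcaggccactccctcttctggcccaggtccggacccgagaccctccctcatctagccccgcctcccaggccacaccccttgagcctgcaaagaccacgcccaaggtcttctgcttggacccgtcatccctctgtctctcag
Cpt1a holds 1 receptor motif and 2 GC boxes, Acsl4 holds 2 overlapping GC boxes, and Acadm holds 1 receptor motif. The stretch of Lipa, which also rose, was looked at too. It holds 0 receptor motifs and 0 GC boxes and is not printed. Over the 250 bases upstream of each start, 28 of the 36 members had 31 windows in the RefSeq table. Dgat1, Dgat2 and Fabp5 were not among them. AGGTCA was in 7 of the 31 and in 14.0% of all 32851 windows, and GGGCGG was in 20 of the 31 and in 32.7% of all windows. The full PPAR element AGGTCANAGGTCA was in 0 of the 31 and in 0.0335% of all windows, and the E-box CACGTG was in 1, that of Slc27a1, and in 6.02% of all. Among genes with a receptor motif, Cpt1a and Cd36 were higher and Acadm and Plin2 lower, while Acadvl and Echs1 were not called and Slc27a2 was not tested. A match is a match of letters and not a bound site.

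The acyl-CoA dehydrogenases start each round of beta-oxidation and are specialised by chain length, and they changed in different directions. Acadm, for medium chains, had 61.1, 64.8 and 62.8 CPM in the Cnr2 KO-labelled libraries and 93.0, 95.5 and 104.7 CPM in WT. It was the only dehydrogenase of the 4 that fell (log2 fold change -0.63, SE 0.06, edgeR adjusted p = 2.35e-08). Acadl, for long chains, had 201.0, 204.7 and 202.4 CPM in the Cnr2 KO-labelled libraries and 155.1, 154.4 and 157.1 CPM in WT (log2 fold change 0.38, SE 0.05, edgeR adjusted p = 4.35e-07). Libraries of a group lay within a few CPM of each other, and the groups did not overlap. Acads, for short chains, was 1.21-fold higher (57.8 ± 2.39 CPM in KO-labelled and 48.1 ± 2.95 CPM in WT libraries, edgeR adjusted p = 1.67e-03). Acadvl, for very long chains, was at 232.8 ± 4.2 CPM in the Cnr2 KO-labelled libraries and 233.0 ± 5.49 CPM in WT (log2 fold change 0.00, SE 0.04, edgeR adjusted p = 0.993). Acadvl shares 1151 of 2686 exon bases with Dvl2 on the other strand, so its counts are uncertain to that extent.

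**Figure D2:**
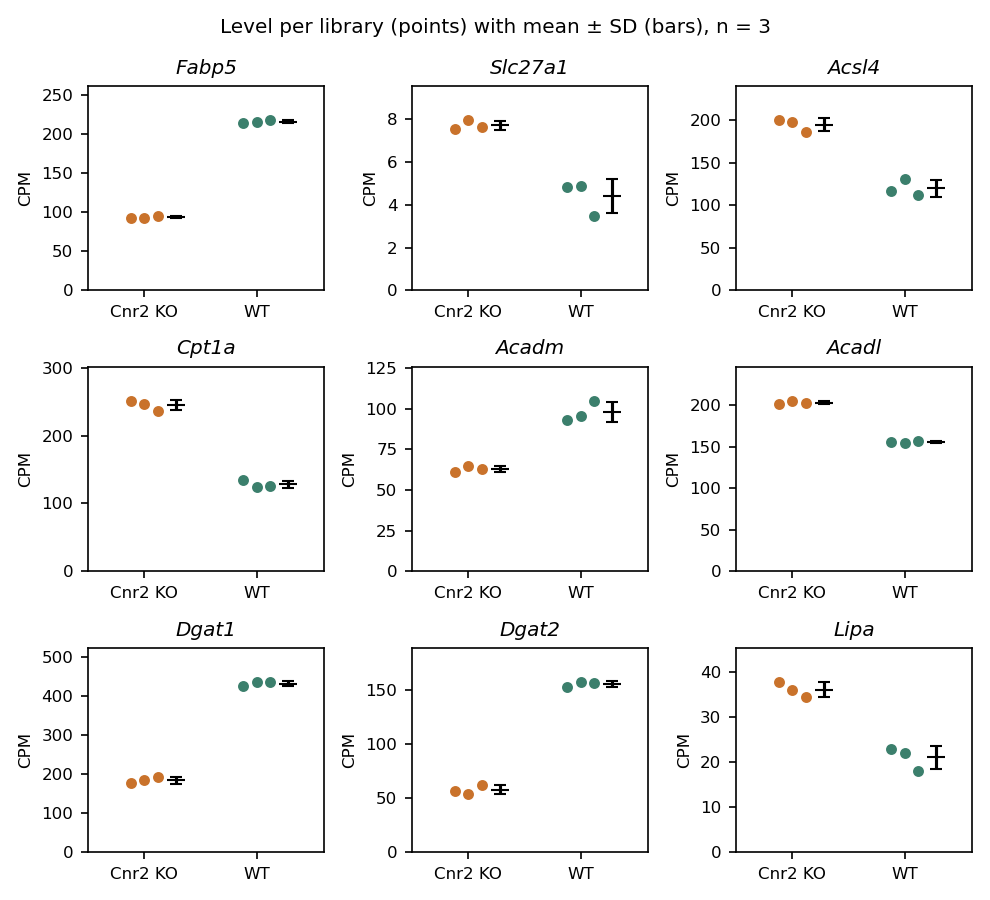
Level in CPM, on axes from 0, of 9 members in each library (points) with the mean and SD of each group (black, n = 3), the Cnr2 KO-labelled libraries left of WT. The groups do not overlap in any of the 9, and Acadm and Acadl lie in opposite directions.

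The later steps of the cycle also changed in both directions. Hadha and Hadhb encode the alpha and beta chains of the mitochondrial trifunctional protein, which carries out the last 3 reactions on long chains. Hadha averaged 124.6 ± 2.81 CPM in the Cnr2 KO-labelled libraries and 121.6 ± 2.36 CPM in WT (edgeR adjusted p = 0.524). Hadhb had 214.6, 202.7 and 203.5 CPM in the Cnr2 KO-labelled libraries and 258.0, 259.5 and 247.4 CPM in WT, a non-overlapping 1.23-fold decrease (log2 fold change -0.30, SE 0.05, edgeR adjusted p = 1.25e-05). The 2 genes stand head to head on chromosome 5, with Hadha on the minus strand at 30118304 to 30155162 and Hadhb on the plus strand at 30155248 to 30184593 (GENCODE M21, GRCm38). The 85 bases between them, chr5:30155163-30155247, are printed on the plus strand because the annotated starts of both genes flank them, with GC boxes in capitals.
Hadha-Hadhb interval: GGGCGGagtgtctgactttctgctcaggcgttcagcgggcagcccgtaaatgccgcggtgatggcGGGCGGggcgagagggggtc
The GC box occurs in it in 2 places. Among enzymes that act on shorter chains, Acaa2, the mitochondrial thiolase, had 96.9, 109.4 and 104.7 CPM in the Cnr2 KO-labelled libraries and 69.8, 72.4 and 75.4 CPM in WT (log2 fold change 0.52, SE 0.06, edgeR adjusted p = 3.20e-07). Hadh, the hydroxyacyl-CoA dehydrogenase, was 1.19-fold higher (158.1 ± 3.03 CPM in KO-labelled and 133.2 ± 5.44 CPM in WT libraries, edgeR adjusted p = 2.08e-04). Eci1, an isomerase needed for unsaturated chains, had 27.9, 28.6 and 28.8 CPM in the Cnr2 KO-labelled libraries and 42.0, 42.1 and 40.2 CPM in WT (log2 fold change -0.54, SE 0.07, edgeR adjusted p = 1.74e-06). Echs1, the short-chain hydratase, was at 45.5 ± 0.966 CPM in the Cnr2 KO-labelled libraries and 48.4 ± 1.85 CPM in WT. It was not called (edgeR adjusted p = 0.26) but was called lower after correction for GC and length (log2 fold change -0.19, adjusted p = 0.0146). Acaa1a, the thiolase of peroxisomes, was 1.31-fold higher (87.1 ± 3.59 CPM in KO-labelled and 66.4 ± 1.69 CPM in WT libraries, edgeR adjusted p = 7.84e-06), and it has a close relative, Acaa1b, with which reads may be shared.

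Electrons from the dehydrogenases pass through electron transfer flavoprotein, a dimer of Etfa and Etfb, to Etfdh and on to ubiquinone. The 2 chains of the dimer moved in opposite directions by small amounts. Etfa had 136.1, 146.3 and 140.2 CPM in the Cnr2 KO-labelled libraries and 150.6, 159.1 and 163.7 CPM in WT (log2 fold change -0.16, SE 0.05, edgeR adjusted p = 8.31e-03). Etfb had 131.8, 138.1 and 140.1 CPM in the Cnr2 KO-labelled libraries and 122.3, 114.9 and 124.4 CPM in WT (log2 fold change 0.18, SE 0.05, edgeR adjusted p = 4.27e-03). The groups overlapped in neither gene. After correction for GC and length, Etfa was at -0.05 (adjusted p = 0.396) and was no longer called. Etfdh averaged 87.6 ± 2.14 CPM in the Cnr2 KO-labelled libraries and 89.2 ± 3.12 CPM in WT (edgeR adjusted p = 0.688).

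Ratios of partner genes within a library, in which the scaling of the libraries cancels, were compared for 4 pairs chosen after their values were seen. The log2 ratio of Acadm to Acadl was -1.69 ± 0.029 in the Cnr2 KO-labelled libraries and -0.67 ± 0.078 in WT (SD, n = 3 each). That of Hadhb to Hadha was 0.73 ± 0.047 in the Cnr2 KO-labelled libraries and 1.07 ± 0.04 in WT. That of Etfa to Etfb was 0.04 ± 0.041 in the Cnr2 KO-labelled libraries and 0.39 ± 0.084 in WT. The Dgat2 to Dgat1 ratio was -1.68 ± 0.081 in the Cnr2 KO-labelled libraries and -1.47 ± 0.0048 in WT. None of the 4 ratios overlapped between groups, and 68.9% of all tested single genes did not overlap either. For Acadm to Acadl and Etfa to Etfb this was fixed beforehand. Each gene had no overlap, and the partners moved in opposite directions. An exact permutation test over libraries (two-sided) gave p = 0.1 for each ratio, and 0.1 after Benjamini-Hochberg adjustment over the 4. That is the smallest p it can give for 3 against 3. As the pairs were chosen by their values, the test adds no support.

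**Figure D3:**
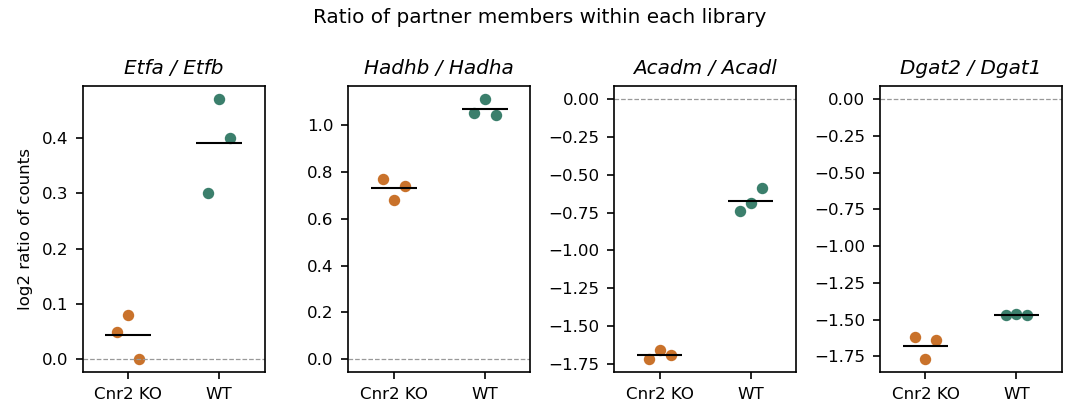
Log2 ratio of the counts of 2 partner genes within each library (points) with the group mean (line), the Cnr2 KO-labelled libraries left of WT; each panel has its own scale and the dashed line marks equal counts. All 4 ratios are lower in the Cnr2 KO-labelled libraries, from -0.21 for Dgat2 to Dgat1 to -1.02 for Acadm to Acadl.

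Storage showed the largest decreases of the set. Dgat1, one of 2 unrelated enzymes that add the third fatty acid to make triglyceride, had 176.4, 184.4 and 194.2 CPM in the Cnr2 KO-labelled libraries and 425.0, 435.0 and 436.0 CPM in WT. Dgat1 fell by 1.22 on the log2 scale (SE 0.05, edgeR adjusted p = 5.18e-14), 2.34-fold. Dgat2, the other, had 57.3, 54.1 and 62.4 CPM in the Cnr2 KO-labelled libraries and 153.2, 157.8 and 157.2 CPM in WT. It fell by 1.43 on the log2 scale (SE 0.06, edgeR adjusted p = 1.01e-13), 2.7-fold, the largest decrease among the tested members. In both genes every library labelled Cnr2 KO was below every WT library by far more than the spread within a group. Leaving out any 1 library kept Dgat1 between -1.26 and -1.19 and Dgat2 between -1.49 and -1.38.

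Plin2, which coats lipid droplets and is stabilised by them, was the most abundant member. It had 617.9, 639.1 and 546.3 CPM in the Cnr2 KO-labelled libraries and 692.8, 676.6 and 643.0 CPM in WT, a 1.12-fold decrease (log2 fold change -0.16, SE 0.05, edgeR adjusted p = 0.0143). The groups lay next to each other, and the lowest value, replicate 3 labelled Cnr2 KO, carried much of the difference: without it the change was -0.09 (adjusted p = 0.109). The call was also lost with upper-quartile scaling (adjusted p = 0.0514) and after correction for GC and length (adjusted p = 0.0644). Lipa, the lysosomal acid lipase that frees fatty acids from stored or engulfed lipid, had 37.8, 36 and 34.5 CPM in the Cnr2 KO-labelled libraries and 23.0, 22.1 and 18.1 CPM in WT. Lipa rose 1.71-fold (log2 fold change 0.77, SE 0.09, edgeR adjusted p = 3.61e-07), and its groups did not overlap.

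**Figure D4:**
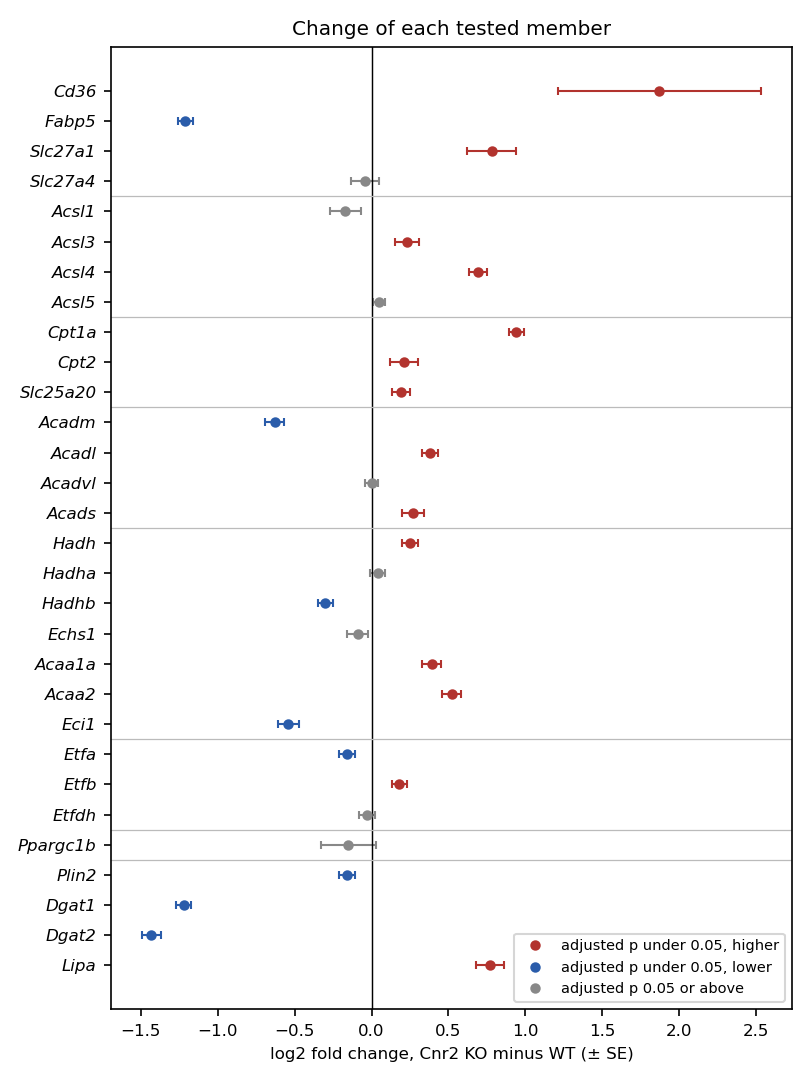
Log2 fold change of the 30 tested members, libraries labelled Cnr2 KO minus WT, with its approximate standard error; grey lines separate the roles, red and blue points passed edgeR's adjusted p under 0.05 as higher and lower, grey points did not. Dgat2 at -1.43, Dgat1 at -1.22 and Fabp5 at -1.21 are the 3 largest decreases, and the 1.87 of Cd36 has by far the widest error.

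Among regulators, Ppara, the nuclear receptor that drives oxidation genes in liver, and the coactivator Ppargc1a had no row. Ppargc1b, the related coactivator, was at 5.26 ± 1.32 CPM in the Cnr2 KO-labelled libraries and 5.81 ± 0.612 CPM in WT (edgeR adjusted p = 0.481). The values were 5.34, 3.90 and 6.54 CPM in the Cnr2 KO-labelled libraries and 6.30, 6.00 and 5.13 CPM in WT, so the groups overlapped.

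Levels per kb of the longest coding transcript let members be ranked against each other. In the Cnr2 KO-labelled libraries, Plin2 was first at 318 ± 25.8 CPM per kb and Etfb second at 153 ± 4.85. Acadvl (107 ± 1.94), Acadl (106 ± 0.976), Acsl5 (103 ± 0.81), Etfa (101 ± 3.7), Hadhb (101 ± 3.23) and Dgat1 (98.0 ± 4.71) followed. Acadvl and Acadl did not differ beyond their SDs, nor did Etfa, Hadhb and Dgat1. These SDs hold only the spread among libraries and not the error of comparing different genes. In WT, Plin2 was also first at 355 ± 13.4 CPM per kb, but Dgat1 at 229 ± 3.22 and Fabp5 at 219 ± 1.8 came next, ahead of Etfb (135 ± 5.56) and Hadhb (124 ± 3.23). Dgat1 ranked 8 and Fabp5 ranked 9 of 30 in the Cnr2 KO-labelled libraries, against 2 and 3 in WT. Dgat2 ranked 21 in the Cnr2 KO-labelled libraries (25.6 CPM per kb) and 11 in WT (69.0 CPM per kb). At the other end, Cd36, Ppargc1b and Slc27a1 were at 0.294 to 2.76 CPM per kb in the Cnr2 KO-labelled libraries and 0.0781 to 1.59 CPM per kb in WT.

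Other genes of these pathways were taken from 9 lists, 151 genes beyond the members. Of the 106 that could be tested, 40 were higher and 33 lower, and 68.9% were called against 66.3% of all tested genes. The lists are described by their counts and medians, without a test of the list.

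Other uptake and binding genes had 2 of 8 higher and 5 lower, with a median log2 fold change of -0.36; without replicate 2 labelled Cnr2 KO, 3 were lower. Vldlr, a lipoprotein receptor, was 2.03-fold lower (1.27 ± 0.643 CPM in KO-labelled and 2.68 ± 0.759 CPM in WT libraries, edgeR adjusted p = 0.0168), and Lrp1, another, was 2.94-fold lower at 0.335 ± 0.177 CPM in KO-labelled and 0.947 ± 0.326 CPM in WT libraries (edgeR adjusted p = 7.31e-03). The groups of Vldlr overlapped, and its call was lost without replicate 1 (adjusted p = 0.0894) or 3 (0.0573) labelled Cnr2 KO and without WT replicate 3 (0.0664). That of Lrp1 was lost without replicate 2 labelled Cnr2 KO (adjusted p = 0.0511) and without WT replicate 2 (0.0865). Slc27a6, a transporter best known from heart, had 18, 12 and 11 counts in the Cnr2 KO-labelled libraries and 0, 6 and 0 counts in WT, where the 6 counts were in the deepest library (edgeR adjusted p = 2.00e-05). Of other activating enzymes and thioesterases 6 of 10 were higher and 1 lower (median 0.23). Acot11, a thioesterase that splits acyl-CoA, was at 101.0, 100.9 and 122.9 CPM in the Cnr2 KO-labelled libraries and 46.6, 47.2 and 46.9 CPM in WT (2.30-fold, edgeR adjusted p = 2.65e-11). Acsf2, a medium-chain synthetase, was 1.79-fold higher (edgeR adjusted p = 1.31e-05).

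Of the carnitine and malonyl-CoA genes 3 of 7 were higher and 1 lower (median 0.08); 2 were lower without replicate 1 labelled Cnr2 KO or without WT replicate 3. Mlycd, which breaks down malonyl-CoA, the inhibitor of Cpt1a, had 36.7, 31.9 and 34.3 CPM in the Cnr2 KO-labelled libraries and 13.9, 17.2 and 19.2 CPM in WT (2.04-fold, edgeR adjusted p = 3.65e-08). Crot, which makes carnitine esters in peroxisomes, had 52.0, 47.7 and 50.5 CPM in the Cnr2 KO-labelled libraries and 19.4, 19.9 and 22.7 CPM in WT (2.44-fold, edgeR adjusted p = 4.44e-11). Both were named for their small p, and both were above WT in every library. Among all tested genes, the groups did not overlap in 68.9%. Of 19 other genes listed under mitochondrial oxidation 3 were higher and 8 lower (median -0.09). Hsd17b10, which oxidises branched and short-chain hydroxyacyl-CoA, was 2.11-fold lower (72.0 ± 4.67 CPM in KO-labelled and 152.4 ± 3.21 CPM in WT libraries, edgeR adjusted p = 3.65e-12). Nudt19, on the list but a hydrolase of coenzyme A rather than an oxidation enzyme, was 1.68-fold lower (edgeR adjusted p = 9.66e-10). Decr1, the reductase for polyunsaturated chains, was 1.81-fold higher (39.8 ± 1.58 CPM in KO-labelled and 22.1 ± 1.48 CPM in WT libraries, edgeR adjusted p = 1.44e-08).

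Peroxisomal oxidation had 8 of 15 higher and 5 lower (median 0.16). The 3 with the smallest p among those of at least 1.5-fold were lower. Pecr, an enoyl-CoA reductase, was 2.67-fold lower (9.97 ± 0.236 CPM in KO-labelled and 26.6 ± 0.331 CPM in WT libraries, edgeR adjusted p = 8.51e-11). Ehhadh, the bifunctional enzyme, was 2.27-fold lower (edgeR adjusted p = 8.65e-09) and Pex5, the import receptor, 1.62-fold lower (edgeR adjusted p = 2.86e-07).

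Other droplet and storage genes had 4 of 17 higher and 8 lower (median -0.17). Agpat4, an acyltransferase of lysophosphatidic acid, was at 84.0 ± 4.94 CPM in the Cnr2 KO-labelled libraries and 207.2 ± 1.37 CPM in WT (2.47-fold lower, edgeR adjusted p = 9.16e-14). Hilpda, a droplet protein that inhibits lipolysis, was at 93.8 ± 6.34 CPM in the Cnr2 KO-labelled libraries and 209.9 ± 14.1 CPM in WT (2.24-fold lower, edgeR adjusted p = 3.27e-12). Lpin2, a phosphatidate phosphatase, was 2.98-fold higher (18.8 ± 1.32 CPM in KO-labelled and 6.35 ± 0.549 CPM in WT libraries, edgeR adjusted p = 5.57e-10). Of 8 lipolysis genes 3 were higher and 0 lower, or 1 lower without replicate 2 labelled Cnr2 KO (median 0.03; edgeR, with 0 lower also at an unadjusted p under 0.05, in DESeq2 and in limma-voom), with Lipe, hormone-sensitive lipase, at 21.0, 18.4 and 18.4 CPM in the Cnr2 KO-labelled libraries and 9.56, 8.48 and 9.19 CPM in WT (2.15-fold, edgeR adjusted p = 3.14e-08).

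Regulators of lipid genes had 11 of 22 higher and 5 lower (median 0.24). Tfeb, a factor for lysosomal genes, was 2.83-fold higher (17.1 ± 0.609 CPM in KO-labelled and 5.88 ± 0.783 CPM in WT libraries, edgeR adjusted p = 2.67e-09), and Ncoa1, a coactivator of nuclear receptors, 1.59-fold higher (edgeR adjusted p = 1.27e-06). Rxrg, a partner of the PPARs, had 63, 54 and 77 counts in the Cnr2 KO-labelled libraries and 2, 13 and 0 counts in WT (edgeR adjusted p = 7.59e-09). Of 9 tested genes listed as PPAR-alpha targets, among them the members Cpt1a, Acsl1, Hadha and Plin2, 2 were higher and 3 lower (median -0.10).

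**Figure D5:**
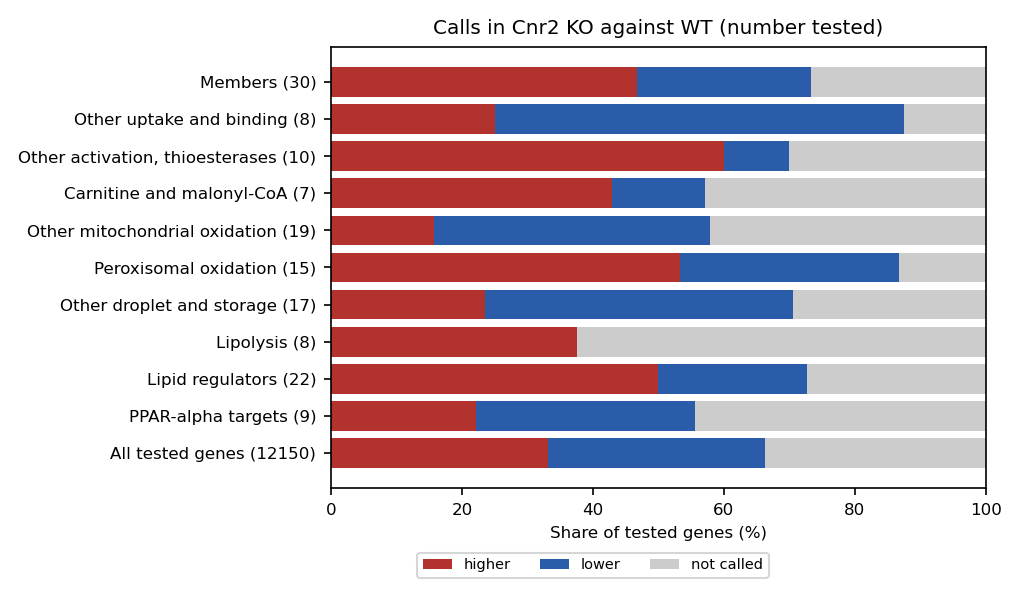
Share of tested genes called higher (red), lower (blue) or not called (grey) in the Cnr2 KO-labelled libraries against WT, for the members, the 9 related lists and all 12150 tested genes, with the number tested in brackets. The members have 46.7% higher and 26.7% lower, and all tested genes 33.1% and 33.2%.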

How the data were processed

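RNA was sequenced from 6 libraries, each from 10 pg of RNA amplified with a SMARTer low-input kit, per the labels' protocols. The authors deposited expected counts, of which 59.08 to 81.23% per library lay within 0.02 of a whole number. Partek 10.0, STAR 2.7.8, DESeq2 and build mm10 are named in the submitters' processing notes without roles; how reads were counted, and whether by strand, is not stated there. Exons of 9 members (Acsl1, Acsl3, Acsl5, Cpt1b, Acadvl, Hadha, Echs1, Acaa1a, Etfdh) overlap those of another gene in the table, which makes these counts uncertain. Exons of Etfb overlap Gm45233 and Mir7051, and those of Slc27a2 overlap Gm26697, and none of these has a row.

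Values were rounded to whole counts and tested with edgeR 4.0.16 (R 4.3.3; quasi-likelihood test, TMM, filterByExpr with minimum count 10 and total 15, genotype as the only term) over 12150 genes, with Benjamini-Hochberg adjustment over all of them. The SE is the absolute log2 fold change divided by the square root of F. The fit was run on simulated data in which few genes changed. In the real data 66.3% of tested genes were called, and the simulation did not test the scaling or error rate in that setting. Within a group, every pair of libraries differed beyond sampling noise (mean chi-square of 4.15 to 8.07 over genes), and all 6 were kept as replicates. Replicate numbers did not pair the libraries (correlations 0.062, 0.00853 and 0.0344).

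The members and lists were chosen with earlier results of these data known. Values per library are given for members called at 1.5-fold or more and for untested members with counts; those of Acadl, Hadhb, Acaa2, Eci1, Etfa, Etfb, Plin2 and Ppargc1b were added after their values were seen. From each related list, up to 3 called genes of at least 1.5-fold with the smallest p are named. Alternatives were other scalings, filters, DESeq2 1.42.0, limma-voom 3.58.1, a replicate block, omitted libraries, thinning of WT replicate 2 and a threshold of 0.01; an offset for GC content and length was chosen after seeing the data.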

Additional observations from a re-analysis of the deposited data

How the results depend on the processing

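Of the 22 called members, 16 kept their direction and call under all 16 alternatives (10 higher and 6 lower); the exceptions were Cd36, Acsl3, Cpt2, Slc25a20, Etfa and Plin2. Leaving out 1 library gave 11 to 13 higher and 7 to 8 lower members, against 14 and 8, and 3749 to 3859 higher and 3771 to 3958 lower genes in all, against 4019 and 4034. The other alternatives gave 10 to 14 and 7 to 8 members. Leaving out 1 library moved Acadvl between -0.02 and 0.01, Slc27a4 between -0.12 and 0.01 and Ppargc1b between -0.33 and 0.02. Genes near no change switched sign without a call. Acadvl was at 0.04 with upper-quartile scaling, 0.00076 with the stricter filter, 8.5e-05 with the replicate block, 0.0038 in limma-voom, 0.01 with WT replicate 2 thinned and 0.07 with the GC and length offset. Hadha was at -0.10 with that offset and Etfdh at 0.01 with upper-quartile scaling. The replicate numbers share only a number, and the block called 14 members higher and 8 lower. Lpl, Fabp4, Slc27a2 and Cpt1b had too few counts for a test, also with WT replicate 2 at 129617689 counts in all, and Cd36 rests on 0 to 37 counts a library. Of the 20 related genes named, 18 kept their call under the alternatives that could be fitted, and the exceptions were Vldlr and Lrp1. The causes were not tested.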
